A study of Mus musculus with 5 samples.

Results

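The CD antigens are the numbered surface molecules by which antibodies sort blood cells into lineages. Here they comprise every probe set whose platform gene symbol is Cd followed by digits and at most 1 letter and 1 digit. The rule leaves out 14 such genes, among them Cd14, Cd34, Cd74 and Cd86. It gave 58 probe sets for 45 genes, of 12422 probe sets and 8251 named genes in all. The arrays measured RNA, so no statement here is about protein on the cell surface.

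The study profiled total RNA of mouse bone marrow cells that the labels call dendritic cell progenitors and describe as carrying FLT3, the kinase receptor that early progenitors use to sense FLT3 ligand, and CD11b, an integrin chain of myeloid cells whose gene is Itgam. There were 5 samples, numbered 1 to 5, with 1 array each, and they formed 1 group without any control. The labels give no strain, age, treatment, culture or pool of animals, so the spread between samples may be technical. Both sort genes lay above the median of every array, with Flt3 at 571, 1212, 353, 1268 and 318 in samples 1 to 5 and Itgam at 789, 546, 223, 343 and 486.

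Values are scaled signals, which are linear array intensities multiplied by 1 factor per array so that all arrays share a median of 103.4. This does not align low signals, since the 25th percentile was then 0.355 of the median in sample 1 and 0.259 to 0.272 in the others. Low values of sample 1 therefore read higher at a like rank. Means are given ± SD over n = 5 samples. Since the values hold no call of presence, a probe set is described by whether it exceeded the median of its own array, called the limit here. This is a rank within the array and says nothing firm about presence or absence of a transcript. Probe sets differ in how well they hybridize, so the signal of a gene is not set against that of another gene.

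Surface molecules of blood cells fall into a few families. Tetraspanins are membrane organizers that hold receptors and integrins together, SLAM family receptors bind each other between blood cells, and molecules tied to the membrane by a GPI lipid anchor include adhesion antigens and inhibitors of complement. T and B lymphocytes are defined by antigen receptor components and coreceptors such as CD3, CD4, CD8 and CD22. Myeloid and dendritic cells carry scavenger receptors, lectins and paired activating and inhibitory receptors.

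Promoters are given for 2 tetraspanin genes with signal above the limit on all 5 arrays, Cd53 and Cd37. Those of 2 neighbouring T cell receptor component genes without such signal, Cd3e and Cd3d, stand beside them. Each sequence is the 250 bases before the RefSeq gene start in GRCm38.p6, read 5′ to 3′ on the gene's strand. The capitals mark GAGGAA, the core bound by the myeloid and B cell factor PU.1, searched on both strands. The regions are chr3:106790150-106790399 (- strand) for Cd53, chr7:45238840-45239089 (- strand) for Cd37, chr9:45009612-45009861 (- strand) for Cd3e and chr9:44981536-44981785 (+ strand) for Cd3d.
Cd53: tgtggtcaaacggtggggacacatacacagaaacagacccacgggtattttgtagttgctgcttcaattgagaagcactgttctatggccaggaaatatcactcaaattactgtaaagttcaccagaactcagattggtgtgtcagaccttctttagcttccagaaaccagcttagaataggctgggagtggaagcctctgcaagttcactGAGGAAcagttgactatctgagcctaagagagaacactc
Cd37: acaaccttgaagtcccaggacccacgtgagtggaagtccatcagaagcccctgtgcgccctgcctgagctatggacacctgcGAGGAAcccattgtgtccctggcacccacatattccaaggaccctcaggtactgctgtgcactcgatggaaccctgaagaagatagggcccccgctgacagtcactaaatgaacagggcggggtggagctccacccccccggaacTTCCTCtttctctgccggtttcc
Cd3e: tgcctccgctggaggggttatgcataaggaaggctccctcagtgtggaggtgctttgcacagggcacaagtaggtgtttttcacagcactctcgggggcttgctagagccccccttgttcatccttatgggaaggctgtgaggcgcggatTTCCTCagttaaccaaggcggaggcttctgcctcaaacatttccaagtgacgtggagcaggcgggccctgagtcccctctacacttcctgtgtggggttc
Cd3d: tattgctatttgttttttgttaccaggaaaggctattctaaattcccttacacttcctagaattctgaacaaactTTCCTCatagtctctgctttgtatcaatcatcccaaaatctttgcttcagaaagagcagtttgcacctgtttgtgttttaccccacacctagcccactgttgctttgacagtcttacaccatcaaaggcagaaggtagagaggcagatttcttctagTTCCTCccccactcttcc

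The motif stood in all 4 of these promoters. They were picked by gene and do not differ in its presence, so they cannot show whether the motif follows signal. Of the 45 genes, 34 had promoters in the RefSeq table, 42 in all. The motif was in 5 of 15 promoters of genes with a probe set above the limit on all 5 arrays, in 11 of 27 promoters of the other CD antigen genes and in 23.3% of all 32851 promoters. Since some genes have several promoters, by gene it was in 5 of 10, in 11 of 24 and in 25.9% of all genes. The letters TATAAA were in 0 of the 15, in 1 of the 27, that of Cd96, and in 12.4% of all promoters. Median GC content of the 250 bases was 58.8%, 48.4% and 52.4% in these 3 sets. A match is a description of the letters and does not show binding.

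Of the 58 probe sets, 15 (25.9%) lay above the limit on all 5 arrays, against 36.7% of all probe sets, and 22 (37.9%) lay above it on no array, against 34.1%. The 15 probe sets represented 13 of the 45 genes (28.9%), against 44.5% of named genes when each gene was represented by its probe set with the highest mean. They were Cd53, Cd9, Cd81, Cd37, Cd82 and 2 probe sets of Cd151 among the tetraspanins, 2 probe sets of Cd47, Cd164, Cd24a, Cd52, Cd48, Cd300c2 and Cd28. A total of 10 also lay above the 75th percentile of every array, which was 17.2% of the CD antigen probe sets, against 17.4% of all. In bulk RNA, fewer cells of a type and less RNA per cell cannot be told apart.

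**Figure D1:**
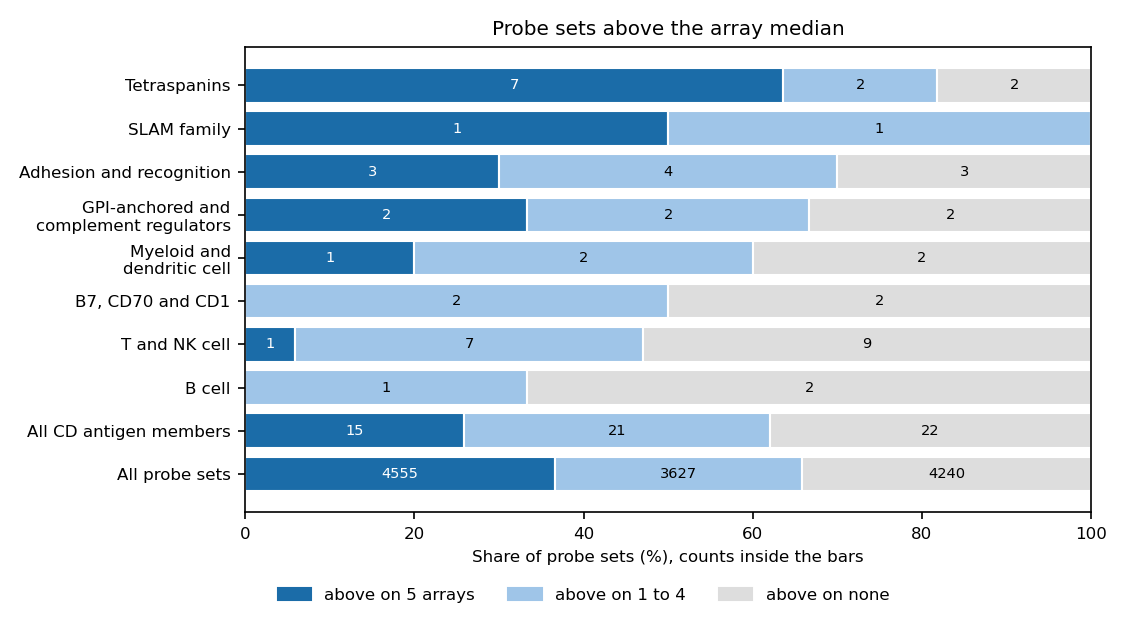
The horizontal bars give, for each group of CD antigens and for all probe sets, the share in percent that lay above the array median on all 5 arrays, on 1 to 4 arrays and on none, with counts inside. Tetraspanins had 7 of 11 probe sets above it on all 5 arrays, T and NK cell antigens 1 of 17 and B cell antigens 0 of 3, against 36.7% of all.

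Tetraspanins had 7 of 11 probe sets (63.6%) above the limit on all 5 arrays, against 36.7% of all probe sets. With 1 probe set per gene it was 6 of 6, against 44.5% of named genes. Cd53, a tetraspanin of leukocytes, had 3899.8, 4977, 5226, 8756 and 5386 in samples 1 to 5, a mean of 5649 ± 1831. Cd9, known from platelets and from many other cells, had 1280.5, 2219, 2026, 1916 and 1333, a mean of 1755 ± 424. Both were lowest in sample 1, and the values of Cd53 lay between the 98.6th and 99.2th percentile of every array.

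Cd81, a tetraspanin found on most cell types, had 893, 616, 543, 972 and 686, a mean of 742 ± 183. Cd37, a tetraspanin of leukocytes best known from mature B cells, had 637, 372, 308, 409 and 794, a mean of 504 ± 204. For Cd37 samples 1 and 5 stood above the other samples. Both stood at 637 or higher, and the other samples at 409 or lower.

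Cd82, which restrains migration of tumour cells, had 3 probe sets. The probe set 99584_at had 506, 249, 261, 279 and 471, a mean of 353 ± 124, and 99585_at had 92.1, 171, 112, 196 and 253, a mean of 165 ± 65.0. Sample 1 was the highest in the first and the lowest in the second, so these probe sets of the same gene ranked the samples differently. The third, 161861_i_at, stayed between 2.84 and 45.1, below the limit on every array.

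Cd151, a tetraspanin that binds laminin receptors of the integrin family, had 4 probe sets. The probe set 97930_f_at had 341, 566, 444, 317 and 305, a mean of 395 ± 110.4, and 97932_f_at had 385, 365, 297, 354 and 451, a mean of 371 ± 55.8. The letter f marks probe sets whose probes match several members of a gene family, so part of this signal may come from other transcripts. The probe set 161823_r_at had 103, 87.8, 257, 296 and 37.8 and crossed the limit on 2 arrays, while 97931_i_at stayed between 4.67 and 49.6.

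**Figure D2:**
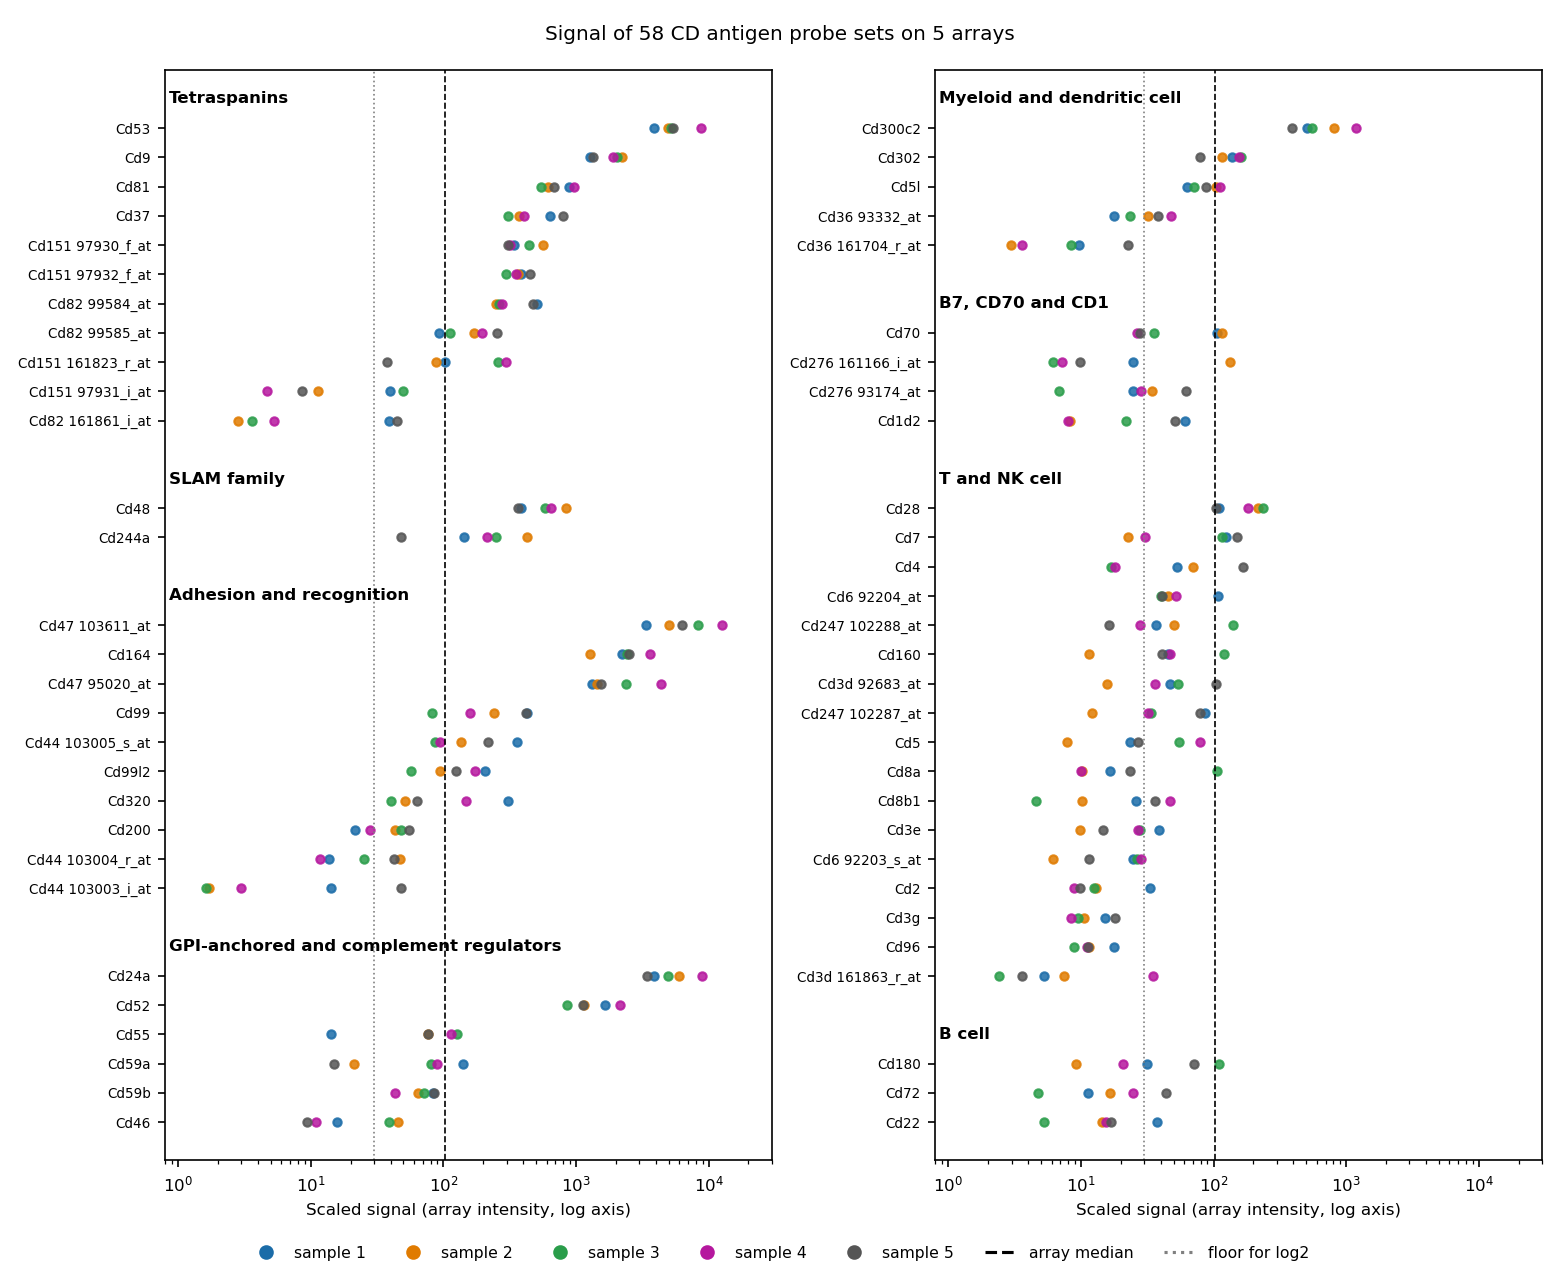
Each row is a CD antigen probe set, each dot the scaled signal (array intensity, log axis) in a sample, with the array median of 103.4 dashed and the floor of 30.0 used for log2 values dotted. Dots of Cd53, Cd24a and Cd47 lie far right of the dashed line, and those of Cd3e, Cd3g, Cd2 and Cd96 left of it in every sample.

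Among adhesion and recognition molecules, 3 of 10 probe sets (30%) lay above the limit on all 5 arrays, those of Cd47 and Cd164. This was near the 36.7% of all probe sets. Cd47, the ligand of the inhibitory myeloid receptor SIRPα that restrains engulfment, had 3389.7, 5022, 8372, 12535 and 6290.0 with probe set 103611_at, a mean of 7122 ± 3532. Its second probe set, 95020_at, had 1311, 1446, 2389, 4389.9 and 1555, a mean of 2218 ± 1285. Both probe sets ordered the samples alike, with sample 1 lowest, then samples 2, 5 and 3, and sample 4 highest. Cd164, a sialomucin of blood progenitors, had 2213, 1281, 2405, 3639.9 and 2530.0, a mean of 2414 ± 843, and was lowest in sample 2.

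Cd99, a glycoprotein of leukocyte migration, had 426, 240.1, 82.6, 158 and 419.6, a mean of 265 ± 154, above the limit on 4 arrays. Its relative Cd99l2 had 206, 94.2, 56.6, 173 and 125, a mean of 131 ± 59.9, above it on 3. Sample 3 was the lowest for both genes. Cd44, the hyaluronan receptor of migrating leukocytes, had 359, 135, 86.5, 94.2 and 216 with probe set 103005_s_at, a mean of 178 ± 113, above the limit on 3 arrays. Its other probe sets, 103003_i_at and 103004_r_at, did not exceed 48.0 in any sample.

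Cd320, the receptor that takes up vitamin B12 bound to transcobalamin, had 305, 51.1, 40.2, 149 and 63.8, a mean of 122 ± 111. It lay above the limit only in samples 1 and 4. Cd200, the ligand of an inhibitory myeloid receptor, ranged from 21.4 to 55.0 and lay below the limit on every array.

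Of the GPI-anchored antigens and complement regulators, Cd24a and Cd52 lay above the limit on all 5 arrays. They were 2 of 6 probe sets (33.3%), near the 36.7% of all probe sets. Cd24a, the heat-stable antigen of progenitors and maturing blood cells, had 3900.4, 6029.6, 4920.3, 8859 and 3436, a mean of 5429 ± 2162. Cd52, a very short glycopeptide of lymphocytes and monocytes, had 1644, 1146, 858, 2137 and 1136, a mean of 1384 ± 507. Both were highest in sample 4.

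The complement regulators lay above the limit on at most 2 arrays. Cd55, which speeds the decay of complement convertases, had 14.3, 76.0, 126, 113 and 76.2 and crossed the limit in samples 3 and 4. Cd59a and Cd59b, neighbouring genes for closely related inhibitors of the membrane attack complex, had means of 69.3 ± 52.0 and 69.1 ± 16.7. Cd59a exceeded the limit once, at 139.9 in sample 1, and Cd59b never. Because the genes are alike, their probe sets may share targets. Cd46, a complement cofactor best known from the testis in mice, ranged from 9.29 to 45.8.

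The SLAM receptor Cd244a, known as 2B4, and its ligand Cd48 are both on chromosome 1, with 2 protein-coding genes between them in the RefSeq gene table. Cd48 had 384, 838, 585, 653 and 362, a mean of 564 ± 198, above the limit on all 5 arrays. Cd244a had 142, 428, 251, 212 and 48.1, a mean of 216 ± 141, above it on 4 arrays. Both genes were highest in sample 2 and lowest in sample 5. The highest value of Cd244a was 8.89 times its lowest and that of Cd48 2.31 times.

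The myeloid and dendritic cell antigens had 1 of 5 probe sets above the limit on all 5 arrays (20%, against 36.7% of all). That was Cd300c2, a receptor of the CD300 family on myeloid cells, with 509, 805, 555, 1187 and 389, a mean of 689 ± 317. Cd302, a C-type lectin of macrophages and dendritic cells, had 138, 117, 160.4, 155 and 78.9, a mean of 129.7 ± 33.1, above the limit on 4 arrays. Sample 5 was the lowest for both genes.

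Cd5l, a secreted scavenger receptor protein of tissue macrophages, ranged from 63.3 to 112 and crossed the limit in samples 2 and 4. The 2 probe sets of Cd36, the scavenger receptor for oxidized lipoproteins of monocytes and macrophages, ranged from 2.99 to 47.4 and stayed below it. Antigens of this group were thus not uniformly above or below the limit.

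T and NK cell antigens had 1 of 17 probe sets (5.9%, against 36.7% of all) above the limit on all 5 arrays. On no array there were 9 (52.9%, against 34.1%). The probe set above it was that of Cd28, the costimulatory receptor of T cells, with 109.7, 216, 236, 183 and 105, a mean of 170.0 ± 60.3. Samples 1 and 5 stood just above the median, at the 51.5th and 50.4th percentile of their arrays. Cd28 lay above the 75th percentile on none of the 5 arrays.

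The CD3 chains, which carry the signal of the T cell receptor, lay low. Cd3e had 39.0, 9.82, 28.1, 26.7 and 14.6, a mean of 23.7 ± 11.6, and Cd3g had 15.3, 10.5, 9.55, 8.40 and 18.2, a mean of 12.4 ± 4.18. By rank Cd3e stood at the 26.6th percentile of the array in sample 1 and at the 25.7th in sample 3. Cd3d had 47.3, 15.8, 54.1, 36.4 and 104 with probe set 92683_at, where sample 5 just exceeded the array median, and a mean of 10.8 ± 13.8 with 161863_r_at. The 3 genes are direct neighbours on chromosome 9. Cd247, the zeta chain, crossed the limit once, with 141 in sample 3 and probe set 102288_at.

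The coreceptors were mostly below the limit. Cd4 had 53.4, 69.6, 16.9, 18.0 and 166, a mean of 64.8 ± 61.0, and sample 5 stood alone above the limit. Cd8a had 16.6, 10.2, 106, 9.95 and 23.3, where sample 3 alone crossed it, and its neighbour Cd8b1 stayed at 46.8 or lower. Cd7, an early T and NK cell antigen, had 125, 22.5, 116, 30.3 and 149.7, above the limit in samples 1, 3 and 5. The highest T and NK cell signals therefore did not fall in the same sample.

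Of the remaining antigens of this group, Cd2, Cd5 and Cd96 lay below the limit on every array, with means of 15.5 ± 10.1, 38.6 ± 28.6 and 12.1 ± 3.31. Cd2 and Cd96 are adhesion receptors and Cd5 an inhibitory coreceptor of T cells. Cd6, the neighbour of Cd5, crossed it with probe set 92204_at in sample 1 at 109, and Cd160, a receptor of NK and T cells, in sample 3 at 119.

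B cell antigens had 0 of 3 probe sets above the limit on all 5 arrays, against 36.7% of all. Cd22, an inhibitory lectin of B cells, had 37.5, 14.5, 5.24, 15.6 and 16.9, and Cd72, another B cell inhibitory receptor, had 11.2, 16.6, 4.71, 24.6 and 44.2. Cd180, a Toll-like receptor relative of B cells and some myeloid cells, had 31.7, 9.10, 109, 20.8 and 71.5 and crossed the limit in sample 3. None of these 3 genes lay above the limit on more than 1 array. Ms4a1, the gene of the B cell antigen CD20, has another symbol and is named after its values were seen. It had 154, 188, 69.4, 54.1 and 170.2 and lay above the limit on 3 arrays. Fcer2a and Cr2, B cell antigens that also carry other symbols, lay above it on no array, with means of 28.2 ± 12.6 and 12.5 ± 16.0.

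The B7 family, CD70 and CD1 group had 0 of 4 probe sets above the limit on all 5 arrays, against 36.7% of all. Cd70, the ligand of CD27 on activated immune cells, had 106, 116, 35.5, 26.6 and 28.0 and crossed it in samples 1 and 2. Cd276, a B7 family member, had 133 in sample 2 and 24.5 or less in the others with probe set 161166_i_at, and at most 61.7 with 93174_at. Cd1d2, which presents lipids, ranged from 7.93 to 61.1.

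Lineage genes outside the CD symbols gave the following counts above the limit on all 5 arrays, where 44.5% of all named genes lay. Neutrophil granule and S100 genes had 10 of 10, macrophage genes 6 of 11, B cell genes 1 of 11, NK cell genes 0 of 7, T cell genes 1 of 4, erythroid genes 1 of 7 and megakaryocyte genes 1 of 5. The T cell gene was Lat, an adaptor protein, at 226 ± 39.2, and the B cell gene Ighm, the mu heavy chain, at 575 ± 159. No value of these lists was 0. Of the CD antigens that carry other symbols, 24 of 45 measured genes (53.3%) lay above the limit on all 5 arrays, against 44.5% of named genes. They included the lysosomal protein gene Lamp1 at 9459.8 ± 2249, the integrin chains Itgb1 at 5622 ± 2096 and Itgb2 at 2368 ± 701, and the selectin ligand Selplg at 2153 ± 534.

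Of the 45 genes, 9 had several probe sets, and for Cd151 and Cd82 some of these lay above the limit on all 5 arrays and others did not. For Cd47 both probe sets lay above it on all 5 arrays. For Cd36 both lay above it on no array. In the others the number of arrays above the limit differed between probe sets without reaching all 5. The letters i and r in an identifier mark probe sets with incomplete or relaxed probe selection, and of the 8 such probe sets only 161823_r_at of Cd151 had a mean log2 signal above the limit.

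**Figure D3:**
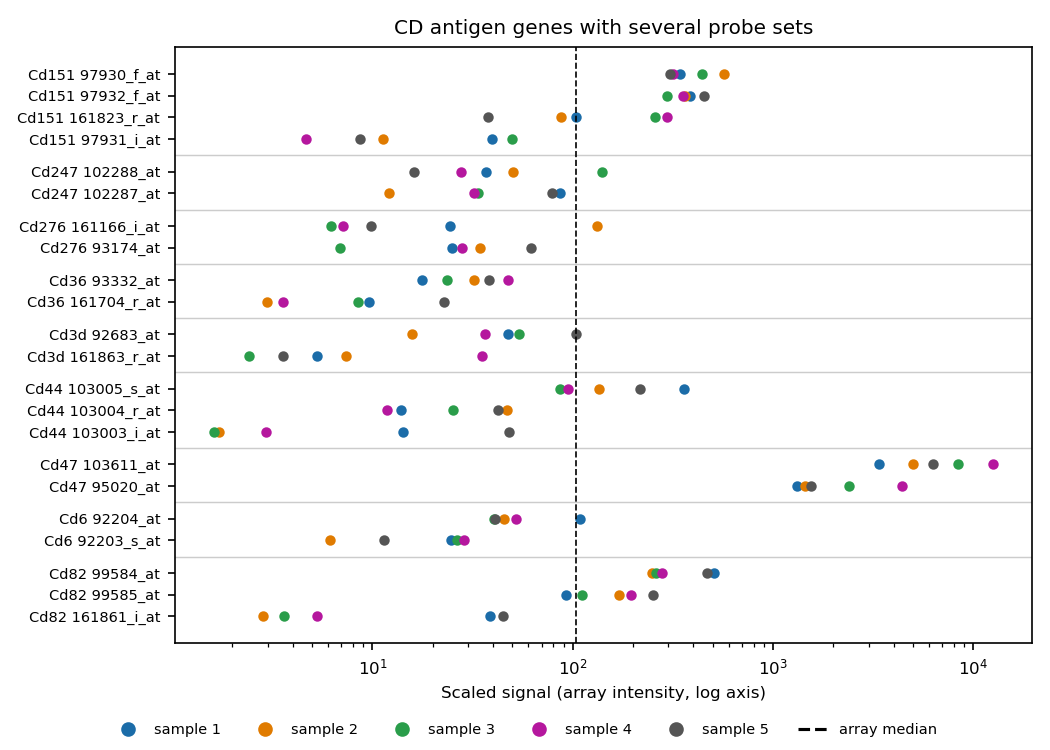
Rows are the probe sets of the 9 CD antigen genes with more than 1, dots the scaled signal (log axis) in samples 1 to 5 and the dashed line the array median of 103.4. The probe sets of Cd47 all lie right of the line, whereas those of Cd151 and Cd82 include some right of it in every sample and some left of it in every sample.

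The samples were then compared within each gene on the log2 scale, after a floor of 30.0, which is the 25th percentile over all arrays, had been applied. Differences between samples were tested with limma, which set each variance against those of probe sets of like signal, over the 5814 probe sets whose mean lay above the median. The CD antigens contributed 22 of these probe sets, and 36 others were not tested because of their low mean. Of the 22, limma called 0 at an adjusted p of 0.05, as it did of all probe sets (0%), and 1 at an unadjusted p under 0.05, against 4.99% of all probe sets. That 1 was Cd244a, with an SD of 1.18 on the log2 scale (limma unadjusted p = 0.0403, adjusted p = 0.925). Cd99 came next with an SD of 1.002 (limma adjusted p = 0.925), then 161823_r_at of Cd151 with an SD of 1.22 (adjusted p = 0.931). Such a test ranks variances among themselves, so a missed threshold does not show that the samples were alike.

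Over all 58 probe sets the median deviation from a probe set's own mean was -0.07, -0.09, -0.05, -0.03 and -0.01 log2 units in samples 1 to 5, against -0.01, -0.01, -0.02, 0.01 and -0.06 over all probe sets. These values depended on the floor, and with a floor at the 10th percentile sample 1 stood at 0.10, sample 2 at -0.20 and sample 3 at -0.15, against 0.09, -0.005 and -0.04 over all probe sets. Individual groups of genes peaked in different samples, as the plot of deviations by sample shows.

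**Figure D4:**
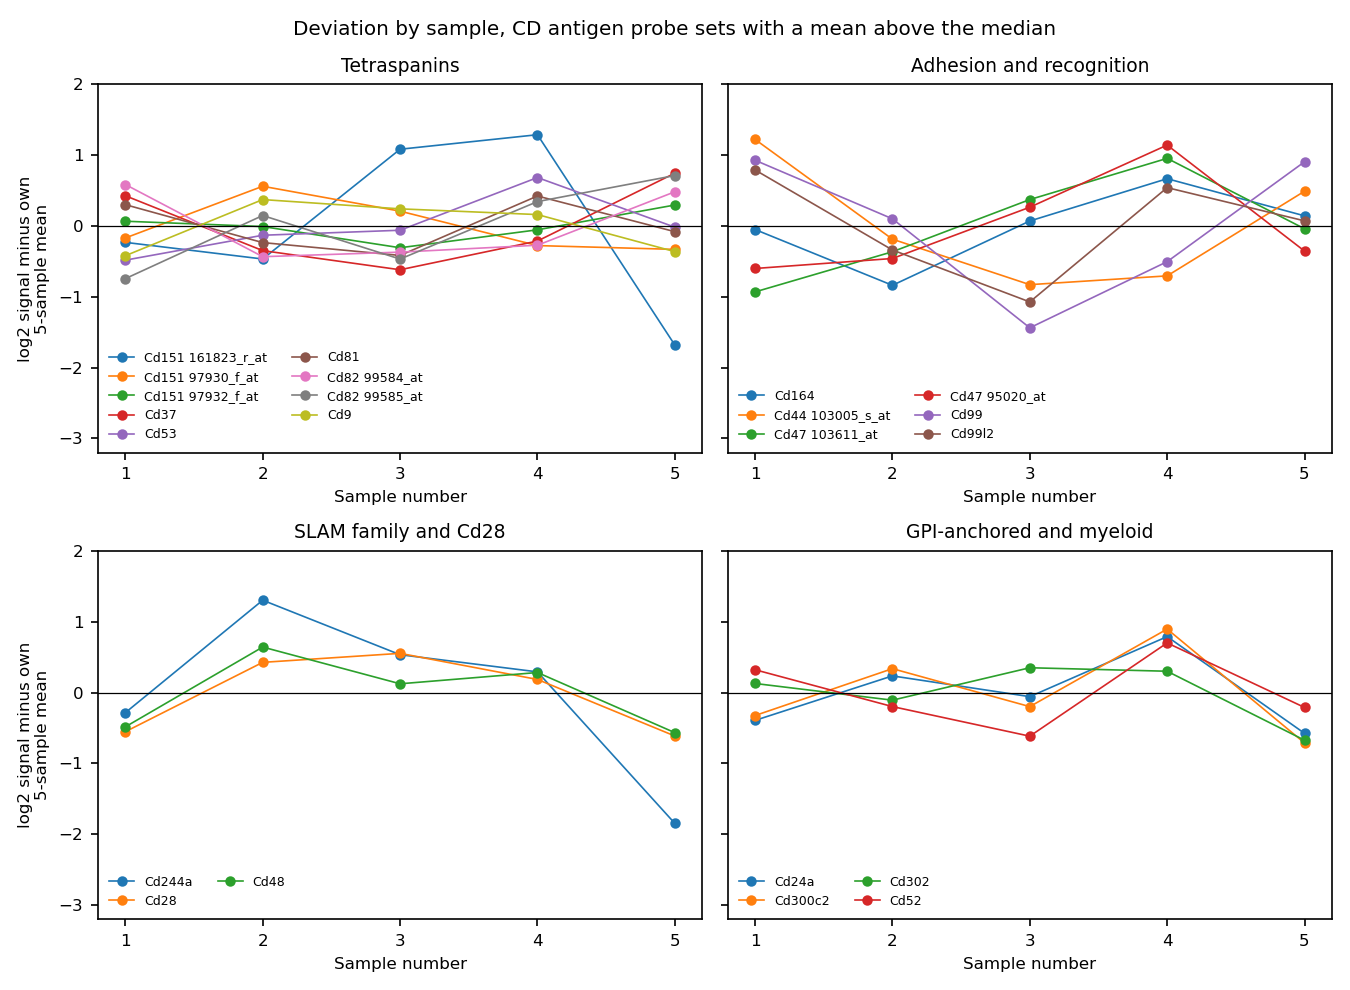
The vertical axis gives log2 signal minus the probe set's own 5-sample mean and the horizontal axis the sample number, for the 22 CD antigen probe sets whose mean exceeded the median, with lines only to follow a probe set. Cd244a, Cd48 and Cd28 lie below 0 in samples 1 and 5, and Cd47, Cd24a, Cd52 and Cd300c2 peak in sample 4.

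Sample 4 had the highest signal for 9 of the 22 probe sets, against 28% of all tested probe sets. They were those of Cd24a, Cd81, Cd300c2, Cd52, Cd53, Cd164, both of Cd47 and 161823_r_at of Cd151. Among the CD antigen probe sets with a mean over 1000, sample 4 was highest in 6 of 7, against 430 of 989 among all probe sets above the limit on all 5 arrays. High signals in general were thus most often highest on that array. The summed signal of the neutrophil list was also highest in sample 4, with 79352, 169364, 126099, 256430 and 169258 in samples 1 to 5. Most of the sum in sample 4 came from S100a8, S100a9 and Ngp, at 82007, 57705 and 54586. Elane, Ctsg and Prtn3 were instead highest in sample 1, where the sum was lowest, at 10647, 8592 and 6429. The rest of the list was highest in sample 4. The part of this list in the CD antigen values was not tested.

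Signal was higher in both samples 1 and 5 than in any other sample for 5 of the 22 probe sets, against 13.8% of all. These belonged to Cd37, Cd99, 99584_at of Cd82, 103005_s_at of Cd44 and 97932_f_at of Cd151. Other probe sets of Cd151 and Cd82 did not all follow this pattern. Those of Cd151 named 97930_f_at and 161823_r_at were lowest in sample 5, at 305 and 37.8. For Cd82, 99585_at was lowest in sample 1, at 92.1. The 3′ to 5′ signal ratio of the actin control, a measure of RNA quality, was 1.08, 3.003, 4.15, 5.20 and 2.55 in samples 1 to 5, and so lowest in samples 1 and 5. That of the Gapdh control was 0.896, 1.06, 4.52, 3.42 and 2.01, lowest in samples 1 and 2. Their part in these values was not tested.

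Signal was lower in both samples 1 and 5 than in any other sample for 6 of the 22 probe sets, against 25.6% of all, a share close to the background. These were Cd48, Cd244a, Cd28, Cd9, Cd24a and Cd300c2. Summed signal of the macrophage list was 3826, 4923, 2436, 3719 and 1793 in samples 1 to 5, with sample 1 second highest. The second place of sample 1 rests on Apoe, 1 of the 11 genes, at 1158, 1109, 83.4, 16.8 and 80.7. For the megakaryocyte list the sum was 467, 947, 641, 683 and 342, with samples 5 and 1 lowest. Vwf gave the largest part of it in every sample, with 316, 608, 534, 331 and 250. Gp1bb and Itgb3 were also highest in sample 2, but Gp9 and Pf4 in sample 4. The megakaryocyte sum thus does not stand for every gene of its list. Both sums were highest in sample 2 and lowest in sample 5, as were Cd48 and Cd244a. Each part of this order also occurred in other lists. The erythroid sum was highest in sample 2 too, at 1593, and the T and B cell sums were lowest in sample 5, at 353 and 1112. The NK cell sum was instead highest in sample 5, at 602. The part of these lists in the CD antigen values was not tested.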

How the data were processed

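Total RNA of 5 samples was measured on 1-colour probe-set arrays. The deposited values are linear intensity values per probe set, with the authors' software and scaling not stated in the labels; per the labels, RNA preparation, labelling and hybridization followed an earlier publication. The 2% trimmed mean was 999.8 in sample 1 and 200.0 in each other sample. The 66 control probe sets were left out of 12488, and each array was multiplied to the geometric mean of the array medians, 103.4. Log2 was taken after a floor at 30.0. Genes were named through the platform annotation, with 10833 probe sets of 1 symbol, 396 of several and 1193 not listed. A RefSeq gene table changed 0 member symbols, and 2 probe sets that join a CD antigen with another gene were not used. The variance test used limma 3.58.1 (robust, trend on mean, Benjamini-Hochberg over 5814 probe sets). It was also run on simulated data in which all unchanged probe sets shared the same SD. In the measured data the SD differs between probe sets, so the simulation does not show how the test performs here. The number of arrays limits the precision. The groups of antigens, the genes named and the marker lists were chosen with earlier results of these data known; any member could be named, and other genes only from those lists. Alternatives covered the limit, normalization, floor, filter, prior and leaving out each sample.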

Additional observations from a re-analysis of the deposited data

Results flagged for a closer look

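Dixon's test for 5 samples at 95% was run on the linear scaled signals. Of the 58 probe sets, 7 (12.1%) had a sample whose gap to the nearest other sample passed it, against 10.1% of all probe sets. By chance the criterion is met in about 1 of 20 groups of normally distributed values, which linear signals need not be. Among probe sets with a mean log2 signal at or below the median the criterion was met by 7 of 36 CD antigen probe sets and by 929 of 6608 (14.1%) overall. In all 7 the outlying sample was the highest and the mean log2 signal lay below the array median. Of the 7, 5 belonged to T and NK cell antigens, which held 17 of the 58. All of these 17 but Cd28 were among the 36 with a low mean, so they also held a large share of those. The outlying probe sets in sample 1 were Cd2 at 33.3 and Cd6 (92204_at) at 109, the 22.4th and 51.3th percentile of that array. In sample 3 they were Cd247 (102288_at) at 141 and Cd8a at 106. The others were Cd276 (161166_i_at) at 133 in sample 2, Cd3d (161863_r_at) at 35.1 in sample 4 and Cd44 (103003_i_at) at 48.0 in sample 5.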

How the results depend on the processing

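The count of 15 CD antigen probe sets above the limit on all 5 arrays was 19 (32.8%, against 42.9% of all probe sets) with the 40th percentile of each array and 10 (17.2%, against 17.4%) with the 75th, so the lower share was not seen there. It ran from 15 to 17 when a sample was left out, where the share of all probe sets ran from 37.5% to 38.3%. With 3 arrays sufficing it was 22 (37.9%, against 48.9%), and with 1 probe set per gene 13 of 45 genes. At the 75th percentile Cd28, Cd37, Cd82 and Cd151 left the set, so the T and NK cell antigens then had 0. Limma called 0 CD antigen probe sets under every alternative run, with a lowest adjusted p from 0.653 with no filter to 0.944 without sample 4. The count at an unadjusted p under 0.05 ran from 0 to 2. The lowest p belonged to Cd244a or, in the values as deposited, under quantile normalization and without sample 2 or 5, to Cd99.

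The median deviation of the 58 probe sets by sample moved with the scaling. In the values as deposited it was 1.62, -0.48, -0.35, -0.35 and -0.33 in samples 1 to 5, against 1.74, -0.44, -0.41, -0.46 and -0.40 over all probe sets. Quantile normalization gave -0.13 in sample 1 and -0.0094 in sample 3, and a floor at the 10th percentile 0.10, -0.20 and -0.15 in samples 1 to 3; the cause was not tested. With each other sample left out it ran from -0.033 to -0.0040 in sample 1, from -0.10 to -0.07 in sample 2, from -0.050 to 0 in sample 3, and from -0.02 to 0 in samples 4 and 5. The mean log2 signal of Cd320 and of 161823_r_at of Cd151 changed sides of the limit when a sample was left out (without samples 2 or 3, and without samples 3 or 4). No paired analysis was possible because there was only 1 group. Signals near background, without detection calls, limit what can be said of the low antigens.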
